A study of Drosophila melanogaster with 36 samples.

Results

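Time-restricted feeding (TRF) was compared with *ad libitum* feeding (ALF) in the indirect flight muscle (IFM) of wild-type (WT) *Drosophila melanogaster*, across all genes and by pathway. The libraries were chosen by their labels: 5 WT-TRF and 6 WT-ALF libraries, 11 of the 36 libraries of the series, with 12 libraries of flies on a high-fat diet (HFD) and 11 of *Sk2* mutants used only for comparison and to estimate the spread. The flies were Canton-S females on a regular diet, kept at 22 °C in a 12 h light and 12 h dark cycle and taken at 3 weeks of age. WT-TRF flies had food for 12 h a day, in the light, and were on agar in the dark, while WT-ALF flies had food throughout. Each library held the poly(A) RNA of the IFM of a pool of 10 flies. A single library was made at each zeitgeber time (ZT, hours after lights on), namely ZT3, ZT7, ZT15, ZT19 and ZT23 for WT-TRF, and these and ZT11 for WT-ALF. The libraries of a group therefore served as its replicates although they differ in time of day, and every p-value measures the spread between pools and between times together. The other WT-TRF library, at ZT11, was left out, as in the study. It held 25242 CPM (counts scaled to a common library size) of sarcomere genes, against 64173 to 94072 in the WT-TRF libraries used and 50233 to 98520 in WT-ALF, and 8097 CPM of DNA replication and germline markers, against 267 to 326 in WT-TRF and 289 to 649 in WT-ALF.

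IFM powers the wing beat. Its fibrillar cells are filled with actin and myosin filaments and with mitochondria, and they burn carbohydrate through glycolysis, the glycerophosphate shuttle and oxidative phosphorylation, with glycogen and proline as local stores. TRF confines the intake of the same food to the active phase, so that flies pass through a daily fast, and the question was which transcripts of the muscle differ between flies that feed this way and flies that feed at all hours.

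Total counts were 3329519 to 9911737 in WT-TRF and 5432971 to 10132861 in WT-ALF, with the lowest at WT-TRF ZT19, so that 3 counts, the limit a count of 0 allows, correspond to 0.296 to 0.901 CPM. All 34 sarcomere genes were tested, and RNA of the actin *Act88F*, which is particular to IFM, was present at 3337 to 8132 CPM in WT-TRF and 1294 to 8225 CPM in WT-ALF. Markers of other tissues were also present and are described with the genes they accompany. In dissected tissue, fewer cells of a type and less RNA per cell cannot be told apart.

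Genes were called at the threshold used in the study, a level at least 25% higher or 20% lower with an unadjusted p of at most 0.05, here named the nominal threshold. By this rule 272 of 9996 genes were higher in WT-TRF (2.72%) and 324 were lower (3.24%). None had an adjusted p under 0.05 (0 of 9996, 0%, edgeR quasi-likelihood test with Benjamini-Hochberg adjustment), against 774 with an unadjusted p under 0.05 and 1 gene at an adjusted p under 0.05 by DESeq2. All values below are therefore read as nominal. The median size of the differences was 0.71 on the log2 scale in the higher genes and 0.59 in the lower genes. A fold of 2 or more was reached by 90 higher and 107 lower genes, and a fold of 4 or more by 26 higher and 48 lower genes. Genes in which all 5 WT-TRF libraries stood above all 6 WT-ALF libraries numbered 16 (0.160% of those tested), of which 12 were past the nominal threshold, while 83 genes stood entirely below (0.830%), of which 47 were past it. At the 5 times that both regimens share, 107 of the 272 higher genes and 142 of the 324 lower genes differed in the same direction each time. The lower genes were shorter, with a median exon length of 1378.5 bases, against 1978.5 bases in the higher genes and 2066 bases over all genes tested.

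**Figure D1:**
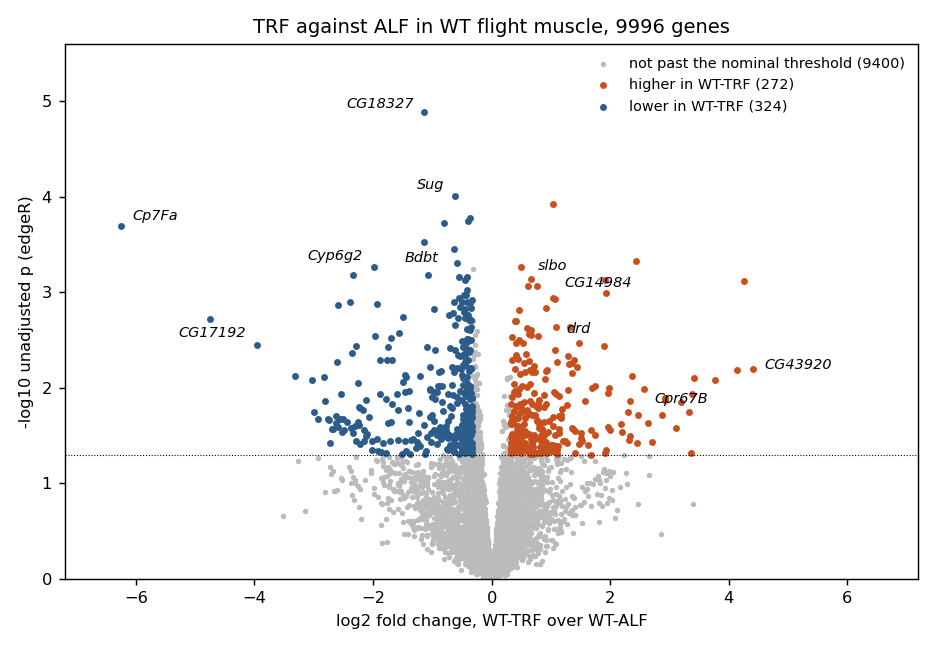
Log2 fold change of WT-TRF over WT-ALF (horizontal) against −log10 of the unadjusted edgeR p (vertical) for 9996 genes, with the 272 higher genes in orange, the 324 lower genes in blue and the others in grey. The dotted line marks the 0.05 level, and the gene farthest up is *CG18327*, with an edgeR adjusted p of 0.129.

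Among genes with at least 50 counts on average and the same direction at all 5 shared times, the 12 with the smallest p in each direction were taken for description. In the higher genes the smallest p-values were those of *slbo* and *emp*. *slbo* (chromosome arm 2R, 24331522 to 24334307, dm6), which encodes a C/EBP transcription factor known from the migration of border cells in the ovary, had 8.99, 13.02, 10.1, 9.98 and 11.9 CPM in WT-TRF at ZT3, ZT7, ZT15, ZT19 and ZT23, against 4.59 to 8.95 CPM in WT-ALF (median 7.36). The lowest WT-TRF library stood just above the highest WT-ALF library, and the log2 fold change was 0.66 ± 0.18 (SE, edgeR adjusted p = 0.329). *emp*, a scavenger receptor of the CD36 family found in epithelia, had 266, 240.2, 209, 428 and 352 CPM in WT-TRF at the same times and 156.2 to 247 CPM in WT-ALF (median 187). The groups overlapped at WT-TRF ZT7 and ZT15, and the log2 fold change was 0.62 ± 0.17 (SE, edgeR adjusted p = 0.329). *emp* was also the member of the list of lipoproteins and lipid carriers that was higher at the nominal threshold, and *CG7227* (log2 fold change −0.95) was the lower one.

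*mfas*, which encodes the secreted adhesion protein midline fasciclin, had 359, 184, 149.9, 221 and 184 CPM in WT-TRF and 89.9 to 160.3 CPM in WT-ALF (median 127). The library at WT-TRF ZT3 was far above the others and that at ZT15 lay within the range of WT-ALF. *drd* (*drop-dead*), a membrane protein gene whose loss leads to early adult death and brain degeneration, had 18.5, 17.3, 5.67, 16.8 and 6.66 CPM in WT-TRF, against 3.25 to 9.12 CPM in WT-ALF (median 5.91). It was high at WT-TRF ZT3, ZT7 and ZT19 and within the WT-ALF range at ZT15 and ZT23, with a log2 fold change of 1.08 ± 0.33 (SE, edgeR adjusted p = 0.358). *CG11841*, a serine protease gene that the annotation also names SP45, did not overlap between the groups, with 19.4 to 30.3 CPM in WT-TRF and 10.0 to 17.8 CPM in WT-ALF. *ASPP*, a regulator of Src kinase activity through Csk, had 20.2 to 25.4 CPM in WT-TRF and 14.8 to 19.1 CPM in WT-ALF, also without overlap. The other 6 genes were the receptor tyrosine kinase *Tie*, the adhesion gene *CG16857* (*bdl*, *borderless*), *CG14984*, *CG17121*, *CG8369* and *CG6495*, with log2 fold changes of 0.46 to 1.04.

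In the lower genes the smallest p-values were those of *CG18327* and *Sug*. *CG18327* (2R, 14166982 to 14168233) had 6.55, 10.0, 4.22, 8.11 and 8.203 CPM in WT-TRF, against 15.9, 16.8, 8.29, 19.8, 20.4 and 16.2 CPM in WT-ALF at ZT3, ZT7, ZT11, ZT15, ZT19 and ZT23. All WT-ALF libraries other than ZT11 stood above all WT-TRF libraries, and the log2 fold change of −1.13 ± 0.22 (SE) had the smallest edgeR adjusted p of all genes, 0.129. *Bdbt* (*Bride of doubletime*), which binds the clock kinase DBT, had 34.9, 38.7, 36.8, 34.9 and 48.4 CPM in WT-TRF and 50.2 to 71.8 CPM in WT-ALF (median 57.1). The groups did not overlap, and the log2 fold change was −0.59 ± 0.15 (SE, edgeR adjusted p = 0.329).

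*Mes4* (*PolE4*), a histone-fold subunit of DNA polymerase epsilon, had 26.3 to 38.7 CPM in WT-TRF and 39.8 to 54.9 CPM in WT-ALF, without overlap. *hay*, the XPB helicase of the transcription factor TFIIH, had 23.1 to 31.2 CPM in WT-TRF and 31.1 to 45.8 CPM in WT-ALF, so that the groups met at their edges. *Srp9*, a subunit of the signal recognition particle, had 13.1 to 15.7 CPM in WT-TRF and 16.3 to 21.1 CPM in WT-ALF. These 3 genes had log2 fold changes of −0.64, −0.42 and −0.46. That of *Srp9* was 0.08 over all 36 libraries, which take in the left-out libraries of WT-TRF (50.5 CPM) and *Sk2*-ALF.

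*Ctr1B*, a copper importer of the plasma membrane, had 7.06, 8.10, 5.77, 7.17 and 5.42 CPM in WT-TRF, against 17.3, 9.12, 6.75, 28.99, 19.3 and 7.55 CPM in WT-ALF. WT-ALF was high at ZT3, ZT15 and ZT19 and near WT-TRF at ZT11 and ZT23. Those 3 libraries also had the most RNA of gut digestive enzymes in WT-ALF (6250, 14240 and 10896 CPM in sum), and the part of gut RNA in the *Ctr1B* difference was not tested. *Pallidin* (3L, 11689631 to 11691399), a subunit of the BLOC-1 complex of lysosome-related organelles, had 9.24 to 16.2 CPM in WT-TRF and 11.5 to 28.7 CPM in WT-ALF. Its annotated end overlaps that of *Sug* (*Sugb*, *CG7334*, 3L, 11683980 to 11690155) on the other strand, which had 20.7 to 34.6 CPM in WT-TRF and 31.7 to 56.2 CPM in WT-ALF. Reads were counted by strand, so these 2 genes were counted apart. The remaining genes were *CG4933* (*Tcs3*), of tRNA modification, *CG9248* (*Pld3*), of the phospholipase D family, *CG5515* and *CG14646*, with log2 fold changes of −0.36 to −0.55. *CG5515*, with 46.7 to 52.9 CPM in WT-TRF and 62.1 to 76.3 CPM in WT-ALF, and *CG14646*, with 16.997 to 18.3 CPM in WT-TRF and 20.2 to 26.8 CPM in WT-ALF, did not overlap between the groups.

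These 24 genes were chosen for small p in these libraries, so their p-values describe the choice. In exact two-sided permutation tests over the 11 libraries their unadjusted p ran between 0.00216, the smallest possible with 5 against 6 libraries, and 0.0563. All but *CG14646* stayed past the nominal threshold when each library was left out in turn. The log2 fold change of *CG14646* was −0.30 without WT-ALF at ZT3.

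**Figure D2:**
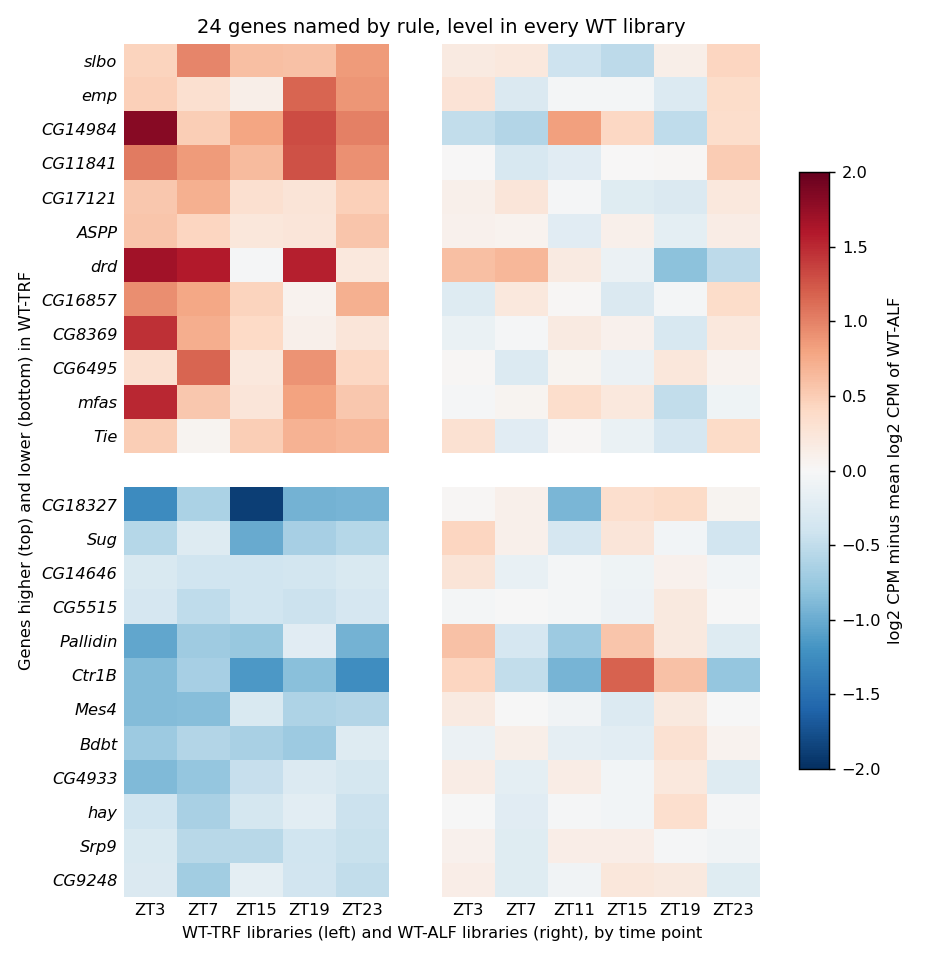
Level of 24 genes in each WT-TRF library (left block) and WT-ALF library (right block), as log2 CPM minus the mean log2 CPM of WT-ALF, with the 12 higher genes above and the 12 lower genes below. *CG18327* was low at WT-ALF ZT11 (8.29 CPM) as in WT-TRF, and *Ctr1B* was high at WT-ALF ZT15 (28.99 CPM).

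The lists of energy metabolism each held at most 1 gene past the threshold, where 2.72% of all genes were higher and 3.24% lower. Of 55 genes of oxidative phosphorylation 47 had a positive log2 fold change, with a median of 0.21, where 4909 of all 9996 genes were positive and the median was −0.0046. None of the 55 was past the nominal threshold in either direction. All 16 genes of glycolysis and the glycerophosphate shuttle were positive (median 0.18, 1 past the threshold), as were 21 of 23 genes of the tricarboxylic acid cycle (median 0.13, 1 past the threshold). Without each library in turn the medians were 0.13 to 0.31, 0.12 to 0.29 and 0.10 to 0.24 for the 3 lists. For oxidative phosphorylation the lowest values came without WT-TRF ZT7 or WT-ALF ZT3 (0.13 each), and for glycolysis without WT-ALF ZT3 (0.12). The highest of each list came without WT-TRF ZT15, and that of the tricarboxylic acid cycle was also raised without WT-TRF ZT3, WT-ALF ZT7 or WT-ALF ZT19. In glycogen and trehalose metabolism 5 of 11 genes were positive (median −0.05, 1 past the threshold), and in mitochondrial beta oxidation 14 of 28 (median 0.04, 1 past the threshold). Members of a list share libraries and are not replicates, and no p was computed for the lists.

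The genes past the threshold were *Hex-C*, a hexokinase, *SdhB*, the iron-sulphur subunit of succinate dehydrogenase, *GlyP*, the glycogen phosphorylase, and, of the list with proline metabolism and transamination (13 of 18 positive, median 0.09), *Argk*, the arginine kinase that buffers ATP in muscle. *GlyP* had 1142, 1155, 641, 802 and 852 CPM in WT-TRF at ZT3, ZT7, ZT15, ZT19 and ZT23, against 531, 733, 562, 746 and 659.6 CPM in WT-ALF at these times and 889 CPM at ZT11. It was higher in WT-TRF at all 5 times, most of all at ZT3, yet the ranges overlapped, and the log2 fold change was 0.42 ± 0.19 (SE, edgeR adjusted p = 0.610). *SdhB* had 1158, 1384, 645, 758 and 1357 CPM in WT-TRF, against 512, 978, 499, 876 and 754 CPM in WT-ALF and 651 CPM at ZT11. It was higher in WT-TRF at 4 of the 5 times and lower at ZT19, with a log2 fold change of 0.58 ± 0.27 (SE, edgeR adjusted p = 0.629). *Argk* had 622 to 912 CPM in WT-TRF and 398 to 668 CPM in WT-ALF, and *Hex-C* had 77.0 to 113 CPM in WT-TRF and 51.6 to 86.6 CPM in WT-ALF. Each of these 4 calls was lost without 1 of 4 or 5 libraries, among them WT-TRF at ZT7 and WT-ALF at ZT3 in all 4. Without WT-TRF at ZT3 or WT-ALF at ZT15, the calls of *GlyP*, *SdhB* and *Argk* were lost. The call of *Hex-C* was also lost without WT-TRF ZT15 or WT-ALF ZT11, that of *SdhB* without WT-TRF ZT23 and that of *Argk* without WT-ALF ZT7. *Acon*, the mitochondrial aconitase and the most abundant of its list per kilobase, had 6453 to 9064 CPM in WT-TRF and 4652 to 7136 CPM in WT-ALF and was not past the threshold (log2 fold change 0.34 ± 0.20, SE).

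Of the 34 sarcomere genes 22 were positive, with a median of 0.07. At the nominal threshold 2 were higher and 0 lower, where 2.72% and 3.24% of all genes were. *Mf* (*myofilin*), a thick filament protein, had 2328, 2539, 1853, 2094 and 1932 CPM in WT-TRF, against 1629, 1591, 1456, 1406 and 1579 CPM in WT-ALF at the same times. It was higher in WT-TRF at all 5 times, and only the WT-ALF library at ZT11, with 2149 CPM, stood among the WT-TRF libraries. *Act79B*, an actin of tubular muscles such as the jump muscle, had 119, 163.8, 61.7, 46.8 and 109.6 CPM in WT-TRF and 41.4 to 86.7 CPM in WT-ALF, with overlap. *Act88F* had a log2 fold change of 0.10 ± 0.51 (SE), and its sign turned when WT-TRF ZT15, WT-ALF ZT3 or WT-ALF ZT7 was left out and over all 36 libraries. *Cam*, the calmodulin gene, was the single gene of muscle calcium handling past the threshold, with 743 to 1100.3 CPM in WT-TRF and 913 to 1275 CPM in WT-ALF (log2 fold change −0.35 ± 0.13, SE). The call of *Mf* was lost without WT-TRF ZT3, WT-TRF ZT7, WT-ALF ZT15 or WT-ALF ZT19, that of *Act79B* and that of *Cam* without WT-TRF ZT3, ZT7 or ZT23 or WT-ALF ZT11 or ZT15.

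**Figure D3:**
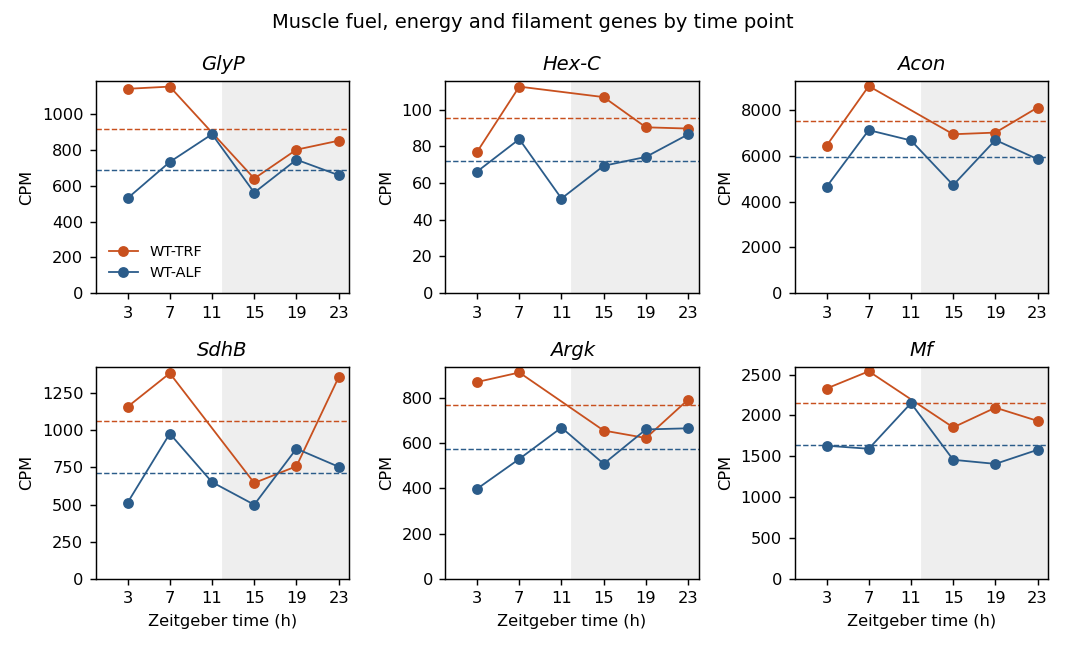
CPM of *GlyP*, *Hex-C*, *Acon*, *SdhB*, *Argk* and *Mf* against zeitgeber time in WT-TRF (orange) and WT-ALF (blue), with dashed lines at the group means and the dark phase in grey; the WT-TRF line passes over ZT11, which was left out. At ZT3 and ZT7 each of the 6 genes was higher in WT-TRF, whereas *SdhB* (758 against 876 CPM) and *Argk* (622 against 660.4 CPM) were lower at ZT19.

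Genes of protein synthesis and breakdown were spread over both directions. Among 85 tested genes of cytoplasmic ribosomal proteins 62 were positive (median 0.12). The 3 past the nominal threshold, *RpL10*, *RpL38* and *RpS3A*, were lower in WT-TRF, where 3.24% of all genes were. The median was −0.0045 without WT-TRF ZT3 and 0.22 without WT-TRF ZT15. *RpS3A* had 2537, 2055, 2256, 2429 and 1893 CPM in WT-TRF, against 3542, 2667, 2705, 2972, 2966 and 3013 CPM in WT-ALF. Every WT-TRF library stood below every WT-ALF library, at a log2 fold change of −0.41 ± 0.12 (SE, edgeR adjusted p = 0.329). *RpL10* had 1793 to 2384 CPM in WT-TRF and 2241 to 2836 CPM in WT-ALF, and its call was lost without WT-TRF ZT7 or ZT23. The call of *RpL38* (454 to 631 CPM in WT-TRF, 582 to 822 CPM in WT-ALF) was lost in 9 of 11 such fits. Of 72 mitochondrial ribosomal protein genes 48 were negative (median −0.07). *mRpL32*, with 11.5 to 16.5 CPM in WT-TRF and 16.8 to 22.1 CPM in WT-ALF, did not overlap between the groups, and *mRpL11*, the other one past the threshold, overlapped. Of 31 proteasome genes 23 were negative (median −0.09, or −0.25 without WT-TRF ZT3 and −0.01 without WT-TRF ZT19), and *Rpt6*, an ATPase of the regulatory particle, was lower, with 163 to 250.3 CPM in WT-TRF and 216 to 282 CPM in WT-ALF. The call of *Rpt6* was lost without WT-TRF ZT7, ZT19 or ZT23 or WT-ALF ZT11 or ZT19, and that of *mRpL11* without WT-TRF ZT3 or ZT23 or WT-ALF ZT7 or ZT15.

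The lists of lipid, amino acid and purine genes held at most 2 calls each, where 2.72% of all genes were higher and 3.24% lower. *Dbi* (*Acbp2*), an acyl-CoA-binding protein, had 26.3, 38.3, 28.2, 87.7 and 76.6 CPM in WT-TRF and 17.996 to 36.9 CPM in WT-ALF. *CG2781* (*Elovl7*), a fatty acid elongase, had 29.8, 33.7, 23.9, 96.7 and 15.8 CPM in WT-TRF and 14.4 to 28.1 CPM in WT-ALF. Both calls thus rested on the late night libraries of WT-TRF: that of *CG2781* was lost without ZT19 and that of *Dbi* without ZT19 or without ZT23 (also without WT-ALF ZT11, and for *CG2781* without WT-ALF ZT19 or ZT23). *CG16758*, a purine nucleoside phosphorylase, had 214, 188, 185, 296 and 231 CPM in WT-TRF and 125 to 182 CPM in WT-ALF, without overlap (log2 fold change 0.49 ± 0.24, SE, edgeR adjusted p = 0.641), and its call was lost without WT-TRF ZT19 or ZT23 or WT-ALF ZT3, ZT7 or ZT19. *ry*, the xanthine dehydrogenase, named because its groups did not overlap, had 37.7 to 54.0 CPM in WT-TRF and 32.4 to 37.6 CPM in WT-ALF, with a log2 fold change of 0.31 ± 0.24 (SE) that was not past the threshold. Of 23 purine genes tested 14 were positive (median 0.07). The glycine, sarcosine, methionine and folate list was at a median of −0.05 (0.19 over all 36 libraries), with 9 of 22 genes positive and 1 higher at the threshold. This was *CG5955* (*Tdh*), a threonine dehydrogenase, with 19.3, 11.7, 5.46, 10.9 and 15.01 CPM in WT-TRF and 5.42 to 9.17 CPM in WT-ALF. It was lower in WT-TRF at ZT15 and higher at the other 4 shared times, and its call (log2 fold change 0.68 ± 0.33, SE, edgeR adjusted p = 0.639) was lost without WT-TRF ZT3 or ZT23 or WT-ALF ZT3, ZT15 or ZT19. *CG6188* (*Gnmt*), the glycine N-methyltransferase, and *CG6385* (*Sardh*), the sarcosine dehydrogenase, had log2 fold changes of 0.90 ± 0.95 and 0.40 ± 0.26 (SE) and were not past the threshold. *CG6188* had 0.774 to 4.06 CPM in WT-TRF and 0.116 to 3.85 CPM in WT-ALF, and *CG6385* had 15.1 to 28.1 CPM in WT-TRF and 13.3 to 18.9 CPM in WT-ALF. These genes were named because the study reports both as upregulated by TRF in WT flies at this threshold. The direction was the same here but the call differed for both, and the cause was not tested.

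*Ilp6*, an insulin-like peptide made mainly by the fat body, was the higher gene of the insulin, TOR and AMPK list, with 26.8 to 43.7 CPM in WT-TRF and 18.9 to 34.9 CPM in WT-ALF, and its call was lost without WT-TRF ZT7. *slif* (*slimfast*), a cationic amino acid transporter, was the lower gene, with 6.80, 8.2001, 5.05, 6.86 and 13.3 CPM in WT-TRF, against 27.6, 16.1, 9.23, 23.7, 18.2 and 4.74 CPM in WT-ALF. It was high in WT-ALF at ZT3, ZT15 and ZT19, the libraries with most gut RNA, whose part in the difference was not tested, and its log2 fold change was −1.04 ± 0.38 (SE), or 0.36 over all 36 libraries, with 86.2 CPM in the left-out WT-TRF library. The list as a whole had 20 of 38 genes positive (median 0.01). Of 28 genes of the fasting and sugar response 18 were negative (median −0.12). The maltase *Mal-A6* and *CG1315* (*Ass*, argininosuccinate synthase), 2 of the 28, were lower at the threshold, where 3.24% of all genes were. *Mal-A6* had 19.9, 53.0, 138, 149.7 and 93.2 CPM in WT-TRF, against 960.1, 469, 42.03, 537, 381 and 12.4 CPM in WT-ALF. It was high in WT-ALF at ZT3, ZT7, ZT15 and ZT19, as gut enzymes were, and low at ZT11 and ZT23. The call of *Mal-A6* was lost without WT-TRF ZT3, WT-TRF ZT7 or WT-ALF ZT3, and that of *CG1315*, with 7.80 to 20.6 CPM in WT-TRF and 13.6 to 51.2 CPM in WT-ALF, without WT-TRF ZT19 or WT-ALF ZT15.

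**Figure D4:**
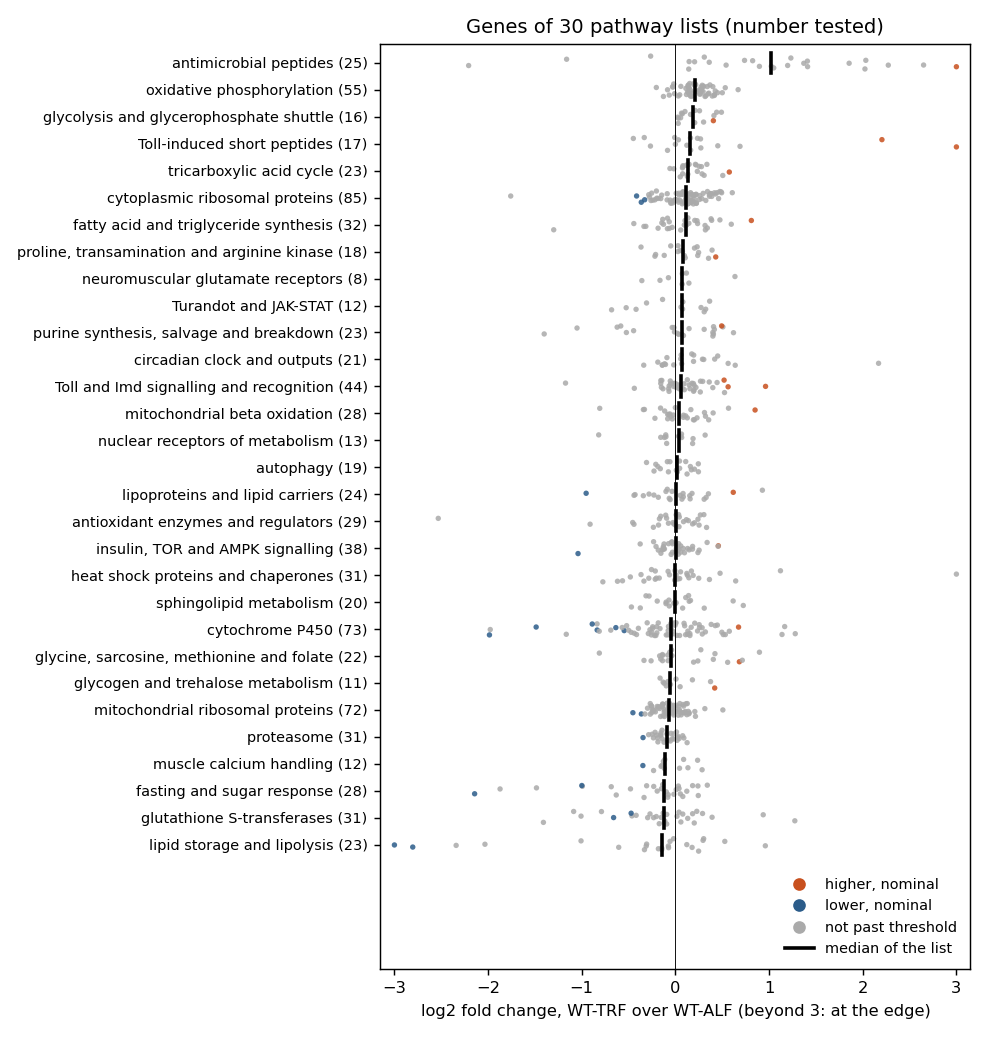
Log2 fold change of WT-TRF over WT-ALF (horizontal) for each tested gene of 30 pathway lists, ordered by the list median (black bar), with genes past the nominal threshold in orange (higher) or blue (lower). The list medians lie between −0.15 for lipid storage and lipolysis and 0.21 for oxidative phosphorylation, apart from antimicrobial peptides at 1.02.

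Among immune genes, the list median was far from that of all genes for antimicrobial peptides, and its sign turned without a single library. Of 25 antimicrobial peptide genes tested 22 were positive, with a median log2 fold change of 1.02, but the summed RNA of the list was 493 to 3416 CPM in WT-TRF and 567 to 1460 CPM in WT-ALF, and without WT-TRF at ZT15 the median was −1.02. Toll-induced short peptides were at a median of 0.16 (11 of 17 positive) and Turandot and JAK-STAT genes at 0.07 (7 of 12 positive). *CR44404* (*IBIN*), a small gene induced by infection, had 57.7 CPM at WT-TRF ZT15, against 0.103 to 1.80 CPM in the other WT-TRF libraries and 0 to 3.67 CPM in WT-ALF. *CG43920*, of the Toll-induced short peptides, had 62.3 CPM at WT-TRF ZT15 and 0.103 to 0.514 CPM in the other WT-TRF libraries, against 0.179 to 1.22 CPM in WT-ALF. Without that library the log2 fold changes of both genes turned, to −0.56 and −0.85, where they were 3.32 and 4.41 with it. *CG6639* (*SPH93*), a serine protease homologue, had 92.8 and 52.1 CPM at WT-TRF ZT3 and ZT19 and 0.155 to 1.13 CPM at the other times, against 0.179 to 14.7 CPM in WT-ALF, and its call was lost without either and without WT-ALF ZT7 or ZT23.

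The higher genes of Toll and Imd signalling and recognition were *SPE*, *nec* and *PPO2*. *SPE* (*Spätzle-processing enzyme*), which activates the Toll ligand, had 87.4, 79.0, 61.9, 52.4 and 42.1 CPM in WT-TRF and 32.5 to 52.2 CPM in WT-ALF (median 45.1). *nec* (*necrotic*), a serpin that restrains the same cascade, had 111, 94.1, 64.4, 68.0 and 86.2 CPM in WT-TRF and 47.0 to 86.4 CPM in WT-ALF (median 54.6). *PPO2*, a prophenoloxidase of crystal cells, had 59.2, 51.1, 26.4, 18.7 and 32.97 CPM in WT-TRF and 10.0 to 29.1 CPM in WT-ALF (median 18.5). For each of the 3 the highest WT-TRF libraries were ZT3 and ZT7, and the groups overlapped in the dark phase. Their log2 fold changes were 0.56, 0.52 and 0.96, and all 3 calls were lost without WT-TRF ZT3. The calls of *SPE* and *PPO2* were also lost without WT-TRF ZT7, that of *SPE* without WT-ALF ZT7 or ZT19, and that of *nec* without WT-ALF ZT3 or ZT11. The crystal cell factor *lz* was higher and *ush*, a regulator of blood cell fate, was lower at the threshold, calls that were lost in 8 of 11 fits without 1 library for *lz* and without WT-ALF ZT3 for *ush*, and 9 of 18 haemocyte markers were positive (median 0.02). Of the 44 genes of Toll and Imd signalling and recognition 29 were positive (median 0.06). At the threshold 3 were higher and none was lower, where 2.72% and 3.24% of all genes were.

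Of 73 cytochrome P450 genes, 6 were lower and 1 was higher at the nominal threshold (3.24% and 2.72% of all genes were). *Cyp4ac1*, the most abundant of the 7 per kilobase, had 45.7 to 73.6 CPM in WT-TRF and 59.2 to 113 CPM in WT-ALF (log2 fold change −0.55 ± 0.24, SE). *Cyp6g2* had 1.93, 2.56, 1.65, 1.248 and 1.39 CPM in WT-TRF, against 7.35, 3.40, 3.43, 15.5, 10.7 and 2.48 CPM in WT-ALF. It was again highest in WT-ALF at ZT3, ZT15 and ZT19. *Cyp4p3*, *Cyp313a4*, *Cyp313b1* and *Cyp318a1* were lower with log2 fold changes of −0.64 to −1.49, and *Cyp6t3*, which lies next to *Cyp6g2*, was higher at 0.67. Of the 7 genes only *Cyp6g2*, *Cyp4p3* and *Cyp313a4* kept the call in every fit without 1 library, and that of *Cyp4ac1* was lost without WT-TRF ZT3, ZT7, ZT15 or ZT23 or WT-ALF ZT11 or ZT23. Of 31 glutathione S-transferase genes 2 were lower, where 3.24% of all genes were. *GstO2* had 202 to 254 CPM in WT-TRF and 218 to 441 CPM in WT-ALF, and *GstD9* had 17.5 to 37.2 CPM in WT-TRF and 32.9 to 53.8 CPM in WT-ALF, and both kept the call in every such fit. None of the 29 antioxidant genes and 31 heat shock and chaperone genes was past the threshold.

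None of the 21 tested genes on the list of the circadian clock and its outputs was past the nominal threshold (13 positive, median 0.07). Of all genes, 2.72% were higher and 3.24% lower. *Bdbt*, described above among the lower genes, was not on this list. The activator partners *Clk* and *cyc* had log2 fold changes of −0.02 ± 0.42 and 0.17 ± 0.17, and the repressor partners *per* and *tim* had 0.45 ± 0.32 and 0.07 ± 0.39 (SE). Changes of the size of these standard errors, and somewhat larger ones, could not be called. *per* had 22.0, 36.7, 27.8, 14.04 and 10.4 CPM in WT-TRF at ZT3, ZT7, ZT15, ZT19 and ZT23, against 12.2, 24.7, 19.7, 13.006 and 11.3 CPM in WT-ALF at these times and 17.5 CPM at ZT11. It was higher in WT-TRF at all shared times but ZT23. The group means average over the cycle of these genes, and WT-ALF alone holds ZT11.

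RNA of other tissues differed widely between single libraries. Of 38 genes of gut digestive enzymes 9 were lower and 1, *Npc2e*, was higher at the threshold, where 3.24% and 2.72% of all genes were, and the median log2 fold change was −1.19. Their summed RNA was 430 to 2839 CPM in WT-TRF and 287 to 14240 CPM in WT-ALF, with 14240, 10896 and 6250 CPM in WT-ALF at ZT15, ZT19 and ZT3. *Jon74E*, a Jonah protease of the midgut, had 142, 36.4, 59.7, 158 and 250 CPM in WT-TRF, against 704, 307, 64.1, 2147, 1323 and 33.97 CPM in WT-ALF, so that WT-ALF was low at ZT11 and ZT23. The other lower genes included *Jon99Ci* and *Npc2d*, with log2 fold changes of −2.53 and −1.87. The trypsin genes *alphaTry*, *betaTry*, *deltaTry* and *epsilonTry* and the pair *Jon65Aii* and *Jon65Aiii* are near copies of each other, and their own values are uncertain. The lipases *CG6295* and *CG17192*, which made the 2 calls of the lipid storage and lipolysis list, followed the same libraries: *CG6295* had 22.96 to 178 CPM in WT-TRF and 26.96 to 1758 CPM in WT-ALF, with the highest values at ZT15, ZT19 and ZT3. Without WT-ALF at ZT19 the median of the gut list was 0. Of its 9 lower genes only *Jon65Aii* turned sign without that library (0.76). Without each library in turn the log2 fold change was −2.94 to −1.89 for *Jon74E* and −2.80 to −2.15 for *Jon99Ci*. Without WT-ALF at ZT15 and ZT19 together 208 genes were higher and 221 lower at the nominal threshold, of which 142 and 152 were among the 272 and 324.

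Of 21 cuticle genes tested 17 were positive (median 0.44, with 0.32 in the dark and 0.46 in the light) and 4 were higher at the threshold, *Cpr47Ee*, *Cpr47Ef* (log2 fold change 0.998), *Cpr51A* (1.40) and *Cpr67B*, where 2.72% of all genes were higher. Of the genes listed, 37 of 118 were at 0 in all 11 libraries. *Cpr67B* had 7.32, 5.43, 5.67, 307 and 222 CPM in WT-TRF, against 55.1, 3.75, 5.09, 33.3, 6.27 and 7.44 CPM in WT-ALF. *ple*, the tyrosine hydroxylase of dopamine synthesis and of cuticle tanning, had 20.5, 29.6, 4.64, 337 and 208 CPM in WT-TRF, against 109, 7.15, 17.05, 69.2, 7.1997 and 13.4 CPM in WT-ALF. Both were high at WT-TRF ZT19 and ZT23 and at WT-ALF ZT3 and ZT15, and without the 2 WT-TRF libraries their log2 fold changes were −1.58 and −1.03, where they were 2.57 and 1.68 with them. *Cpr47Ee*, in contrast, was higher at all 5 times, with 2.56 to 10.1 CPM in WT-TRF and 0.348 to 2.59 CPM in WT-ALF. The takeout gene *to*, which responds to the clock and to starvation, had 1695 and 577 CPM at WT-TRF ZT19 and ZT23 and 2.37 to 9.50 CPM at the other times, against 3.40 to 314 CPM in WT-ALF, and was not past the threshold.

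Eggshell genes summed to 11.1 to 35.6 CPM in WT-TRF and to 13.2 to 1667 CPM in WT-ALF. The highest value was at ZT11, where the WT-TRF library that was left out had 1438 CPM. Of 12 genes tested 2 were lower at the threshold, *Cp7Fa* and *Cp15*, and *Vm32E* was higher (log2 fold change 1.58), where 3.24% and 2.72% of all genes were. *Cp7Fa* had 164 CPM at WT-ALF ZT11 and at most 0.536 CPM in every other WT library, and *Cp15* had 101 CPM at WT-ALF ZT7 and at most 2.44 CPM elsewhere, so that these calls rested on a single library each. The log2 fold change of *Cp7Fa* was −6.25, or 0.50 without WT-ALF ZT11. With WT-ALF at ZT7 and ZT11 left out, a fit added after the values were seen, *CG18327*, *Pallidin* and *Ctr1B* had an adjusted p under 0.05 by edgeR. The library at ZT11 held the lowest WT-ALF level of each of these genes (8.29, 11.5 and 6.75 CPM). Leaving it out therefore widens their difference by itself. Of 36 replication and germline markers 33 were negative (median −0.46, with 0.35 in the dark and −0.996 in the light). Without each library in turn the median was −0.57 to −0.08. In this list *piwi* was lower at the threshold (log2 fold change −2.50, or 1.37 over all 36 libraries), where 3.24% of all genes were. Neuronal markers were positive in 34 of 36 genes (median 0.34, with 0.68 in the dark and −0.16 in the light). Their sums were 10855 to 32964 CPM in WT-TRF and 4482 to 31466 CPM in WT-ALF, the lowest at ZT3. Without WT-TRF at ZT15 the median was 0.09. Fat body markers summed to 39343 to 62483 CPM in WT-TRF and 32838 to 54220 CPM in WT-ALF, highest at WT-TRF ZT3 and ZT7, where *Yp1*, a yolk protein, had 21196 and 17595 CPM, against 8269 and 10395 CPM in WT-ALF at those times. The storage protein gene *Lsp2* was the call of that list, with 31.7 to 354 CPM in WT-TRF and 26.98 to 142 CPM in WT-ALF, and it was lost without WT-TRF ZT7 or ZT15 or WT-ALF ZT7, ZT15, ZT19 or ZT23. The part of these tissues in the differences above was not tested.

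**Figure D5:**
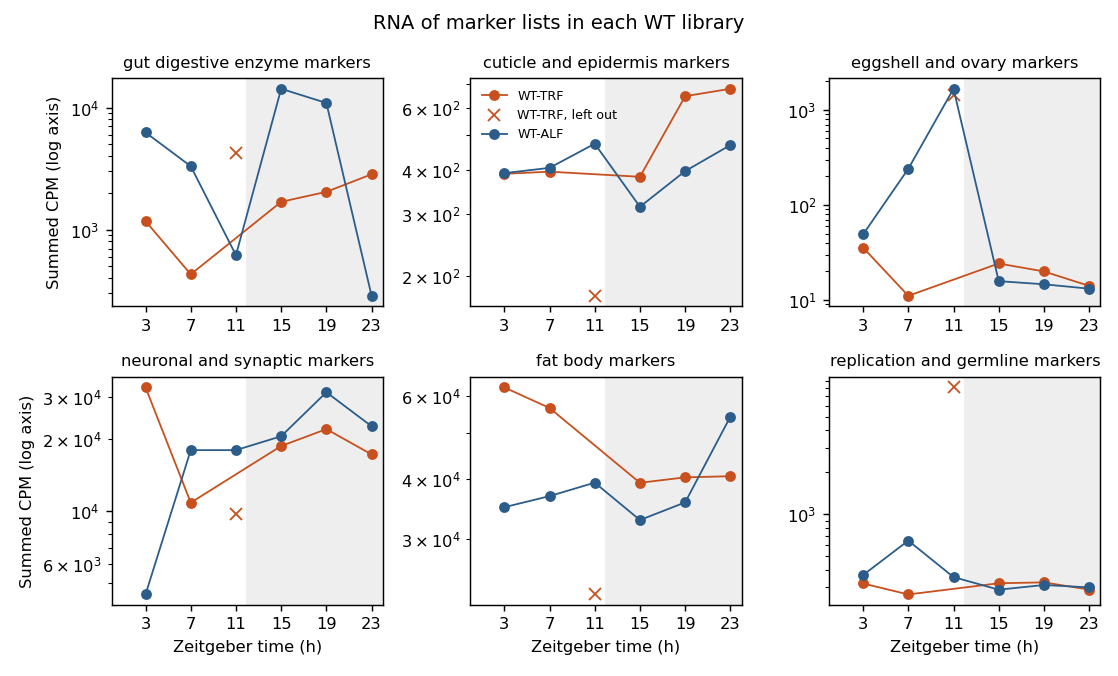
Summed CPM (log axis) of 6 marker lists against zeitgeber time in WT-TRF (orange; the left-out library as a cross) and WT-ALF (blue), with the dark phase in grey. Gut enzymes were highest in WT-ALF at ZT15 (14240 CPM), and the left-out library was apart from all others in replication and germline markers (8097 CPM).

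The daily fast of WT-TRF flies falls in the dark, so the regimens were also set against each other within each phase. In the dark (3 libraries of each regimen) 265 genes were higher and 333 lower at the nominal threshold, and in the light (2 WT-TRF and 3 WT-ALF libraries) 383 were higher and 391 lower. In the light WT-ALF alone held ZT11, so regimen and time of day are partly confounded there. None of the genes differed between the phases at an adjusted p under 0.05 (0%, edgeR interaction), with 652 at an unadjusted p under 0.05 and 5 at an adjusted p under 0.05 by DESeq2. As a description, the median of oxidative phosphorylation was 0.08 in the dark and 0.39 in the light, that of glycolysis −0.02 and 0.46, that of cytoplasmic ribosomal proteins −0.30 and 0.62, and that of the proteasome −0.31 and 0.22, where all genes were at −0.03 and −0.01. In the light the proteasome sum was 4854 CPM at WT-TRF ZT3 and 3170 CPM at ZT7, against 2964 to 4469 CPM in WT-ALF, highest at ZT11. That of cytoplasmic ribosomal proteins was 69514 and 55415 CPM, against 43934 to 51849 CPM. Antimicrobial peptides were at a median of 1.53 in the dark and −1.003 in the light. Their summed RNA in the light was 1849 and 1617 CPM in WT-TRF at ZT3 and ZT7, against 751 to 940 CPM in WT-ALF, so that the sum was higher in WT-TRF where the median was negative. Among single genes, *IM4* (*Dso1*), a Toll-induced peptide, had 1468 and 1402 CPM at WT-TRF ZT3 and ZT7, against 348 to 568 CPM in WT-ALF in the light, and 319 to 568 CPM in WT-TRF, against 459 to 618 CPM in WT-ALF, in the dark.

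The same comparison in the obesity models shares no library with WT, so its values can be set beside those of WT. Of the 272 higher genes 69.9% also had a positive log2 fold change under HFD, where 54.8% of all genes did, and of the 324 lower genes 71.6% were negative, where 45.2% were. In *Sk2* flies these shares were 44.1%, against 48.0% of all genes, and 61.4%, against 52.0%. Past the nominal threshold in the same direction were 43 of the 272 higher genes (15.8%) in HFD flies, where 4.02% of all genes were, and 36 of the 324 lower genes (11.1%), where 7.32% were; these 43 were 10.7% of the higher genes of HFD flies and the 36 were 4.92% of the lower ones. In *Sk2* flies it was 13 (4.78%, where 2.79% of all genes were) and 20 (6.17%, where 3.94% were), or 4.66% of the higher and 5.08% of the lower genes of *Sk2* flies. Past the threshold in the opposite direction in HFD flies were 22 of the 272, where 7.32% of all genes were lower. Of the 324, 3 were higher in HFD flies, where 4.02% of all genes were. In *Sk2* flies 13 of the 272 were lower, as many as in the same direction, where 3.94% of all genes were. Of the 324, 2 were higher in *Sk2* flies, where 2.79% of all genes were.

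By gene, *CG11841* had log2 fold changes of 0.97 in HFD and 0.03 in *Sk2* flies, *CG6495* had 0.97 and 0.11, and *Lsp2* had 2.13 and 1.46, beside 0.92, 0.64 and 1.48 in WT. The HFD values of *CG11841* and *CG6495* were the largest of the 12 higher genes described above. *slbo* and *emp*, with the smallest p of these, had −0.19 and 0.64, and 0.34 and −0.23, beside 0.66 and 0.62 in WT. *CG18327* had −0.55 and −0.21 and *Bdbt* −0.38 and 0.15, beside −1.13 and −0.59 in WT. The lists of energy metabolism went apart: the median of oxidative phosphorylation was −0.35 in HFD and 0.37 in *Sk2* flies, that of glycolysis −0.15 and 0.41 and that of the tricarboxylic acid cycle −0.21 and 0.35. No gene differed in its TRF effect between WT and HFD flies at an adjusted p under 0.05 (0%, edgeR interaction, with 798 at an unadjusted p under 0.05 and 3 at an adjusted p under 0.05 by DESeq2). Between WT and *Sk2* flies 1 gene did (0.0100%), *TyrRII*, a receptor for tyramine, named after its value was seen. It had 1.80, 1.85, 0.927, 1.87 and 1.24 CPM in WT-TRF and 0.581 to 1.07 CPM in WT-ALF, a log2 fold change of 0.78 ± 0.30 (SE) in WT and of −1.56 in *Sk2* flies (edgeR adjusted p = 0.0230 for the difference). Its WT values are near the limit of 3 counts, and the call was lost without WT-TRF ZT3, WT-TRF ZT19, WT-ALF ZT15 or WT-ALF ZT19.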

How the data were processed

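The authors deposited raw counts per gene for 36 IFM libraries, 16727 genes and no normalization. Reads were aligned with STAR per the study's methods, and counted by strand with featureCounts and a dm6 annotation per the file headers. The sources differ in the STAR version. Groups came from the library labels. As in the study, a library of WT-TRF (ZT11) and a library of *Sk2*-ALF (ZT23) were left out.

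The deposited counts of 34 libraries were fitted with edgeR 4.0.16 under R 4.3.3, using TMM factors, filterByExpr and the quasi-likelihood test on 6 group means, with Benjamini-Hochberg adjustment over the genes tested and interaction contrasts between models and between light phases (12 means). CPM are TMM-normalized, with a prior count of 2 for log2 CPM in the two-sided exact permutation tests. Steps were tested on simulated counts. DESeq2 1.42.0 was an alternative, beside all 36 libraries, WT alone, the time point as a block, RLE size factors, other count filters and leaving out each library. Leaving out pairs of libraries by gut, eggshell or cuticle RNA was added after the values were seen.

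Named genes were the 12 per direction with the smallest p (at least 50 counts, the same direction at all 5 shared times), list members past the nominal threshold, genes heading a list, and *Clk*, *cyc*, *per* and *tim*. *ry*, *TyrRII*, *CG6188* and *CG6385* were named after their values were seen. The comparison and the 39 lists were chosen with earlier results of these data known. Of 1280 list members, 1095 were tested.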

Additional observations from a re-analysis of the deposited data

Results flagged for a closer look

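Among the genes named and the summed lists, 14 of 284 groups of libraries held a library far from the others, where chance gives about 1 in 20. In WT-TRF these were *CG17192* at ZT7 (0.718 CPM), *CG43920* at ZT15 (62.3 CPM), the glycine and folate list at ZT7 (1424 CPM) and the proteasome list at ZT3 (4854 CPM). In WT-ALF they were *CG18327* (8.29 CPM), *Mf* (2149 CPM) and *Cp7Fa* (164 CPM) at ZT11, and *CG5515* (76.3 CPM), *Jon65Aii* (101 CPM) and *cyc* (9.41 CPM) at ZT19. For summed lists in WT-ALF they were the proline list at ZT15 (3980 CPM), fat body markers at ZT23 (54220 CPM), neuronal markers at ZT3 (4482 CPM) and replication and germline markers at ZT7 (649 CPM).

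The TRF effect on *TyrRII* differed between WT and *Sk2* flies by 2.34 on the log2 scale, with an edgeR adjusted p of 0.0230. It was higher in WT-TRF than in WT-ALF at all 5 shared times.

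In the WT-TRF library at ZT11, which entered only the fit of all 36 libraries, replication and germline markers summed to 8097 CPM, above the WT-ALF libraries (289 to 649 CPM).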

How the results depend on the processing

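Without each library in turn, 235 to 388 genes were higher and 230 to 402 lower, and the number at an adjusted p under 0.05 was 0 to 1. That gene was *CG18327*, found without WT-ALF at ZT11 and also by DESeq2 (1 gene). Taking in all 36 libraries gave 1041 higher and 262 lower genes, and the median of all genes was 0.0742. With at least 10 counts in every library, which tests fewer genes, 175 were higher and 211 lower. Without WT-ALF at ZT7 and ZT11, 3 genes had an adjusted p under 0.05, each with its lowest WT-ALF level at ZT11. For the difference between models, DESeq2 gave 3 genes for HFD and 8 for *Sk2*, all 36 libraries gave 188 for *Sk2*, and leaving out single libraries gave 0 to 3. Between the phases DESeq2 gave 5 genes and leaving out single libraries 0 to 1. The cause was not tested.

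The time points did not pair the libraries over the 1000 genes that varied most between them. In these genes same-time libraries had a mean correlation of −0.0176, against 0.0036 at other times. Of the 5 WT-TRF libraries 1 correlated best with its own time. Clock genes were not tested apart. With the replicate block 238 genes were higher and 346 lower (0 at an adjusted p under 0.05, and 0 for *Sk2*), of which 198 and 266 were among the 272 and 324.

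Log2 fold changes that turned sign over all 36 libraries were those of *Srp9* (0.0824), *Act88F* (−0.0636), *slif* (0.36), *piwi* (1.37) and *tim* (−0.0323). Without WT-ALF at ZT15 and ZT19 *Jon65Aii* (0.72) and *Npc2d* (0.51) turned, without WT-ALF at ZT7 and ZT11 *Cp7Fa* (0.86), and without WT-TRF at ZT19 and ZT23 *to* (−3.87), *ple* (−1.03), *Cpr51A* (−0.81) and *Cpr67B* (−1.58). *Clk* was at 0.0037 with WT alone and 0.00066 by DESeq2. With single libraries left out, 36 of 87 named genes past the threshold kept the call each time and 4 turned sign in some: *CR44404*, *CG43920*, *Cp7Fa* and *Jon65Aii*. The ranges of those that turned were −0.56 to 3.88 for *CR44404*, −0.85 to 4.78 for *CG43920*, −6.51 to 0.50 for *Cp7Fa*, −3.18 to 0.76 for *Jon65Aii*, −0.10 to 0.34 for *Act88F*, −0.18 to 0.26 for *Clk* and −0.20 to 0.31 for *tim*.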
